A study of Mus musculus with 4 samples.

Results

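The Notch signalling components were followed as a set of 35 genes, taken by their symbols from a table of 26433 genes, and all 35 were found. RNA was from the cerebral cortex of embryos at embryonic day 15 (E15), which the methods describe as telencephalic tissue, and the strain was given as C57BL/6. Conditional knock-in mice, called cKI f/+ mice, have a human SERPINA3 transgene with a CAG promoter and a floxed STOP cassette at the Rosa26 locus, and Nestin-Cre takes the STOP out in neural progenitors and their progeny. Founders were bred with B6D2F2 mice and their offspring with Nestin-Cre mice of C57BL/6 background. The controls were wild-type (WT) littermates, and whether they carried Cre or the floxed allele alone was not given in the sources used here. The 2 cKI f/+ libraries are named KI2 and KI3 and the 2 WT libraries WT1 and WT3. The labels do not say that the libraries of a group came from separate embryos, so the p-values measure the spread between these libraries, which may be technical.

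The libraries held between 17423512 and 18119444 reads counted on genes, and values are given in counts-per-million (CPM) of these totals. A floor of 3 counts equals at most 0.172 CPM. Such a floor covers counting error only. Of 15786 genes with enough reads to test, 19 were called between the genotypes by edgeR's quasi-likelihood test at a Benjamini-Hochberg adjusted p under 0.05, which is 0.120% of the genes tested. Transgene expression was not analysed here. Sex-linked transcripts separated the groups, since Xist had 13223 and 11882 reads in cKI f/+ and 5 in each WT library, and Kdm5d on chromosome Y had 0 reads in both cKI f/+ and 951 and 918 in WT. The 19 genes called include all 5 sex-linked markers, Xist, Kdm5d, Eif2s3y, Ddx3y and Uty. Genotype and embryo sex therefore cannot be told apart in any comparison, and 0 of the 35 Notch components lie on chromosome X or Y.

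Notch signalling passes between touching cells. A Delta or Jagged ligand on one cell binds a Notch receptor on its neighbour, ADAM proteases and then γ-secretase cut the receptor, and the freed intracellular domain enters the nucleus and joins RBPJ and a Mastermind coactivator to switch on Hes and Hey genes. In the embryonic cortex, newborn neurons and committed progenitors present Delta-like ligands, and Hes1 and Hes5 in radial glia hold back the proneural genes and keep these cells dividing. The same pathway also works in blood vessels, where Dll4, Notch4, Hey2 and Heyl are well known. In the paper's reasoning, a fall in methylglyoxal activates Notch and could promote progenitor proliferation. Earlier work had reported that an increase of this metabolite suppresses Notch. The fall was inferred from higher RNA of genes for its breakdown. The comparison here asks whether Notch components differ in RNA level between the genotypes.

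All 35 components were detected in every library, with counts between 72 and 5609, and all 35 were tested. None was called between cKI f/+ and WT mice: 0 of 35 passed an adjusted p of 0.05 in edgeR's quasi-likelihood test, against a background of 0.120% of all genes tested, and the lowest adjusted p was 0.969. At an unadjusted p under 0.05 there was 1 component, Hey2, against a background of 4.60%. Hey2 was higher in cKI f/+, as were 2.26% of genes tested at that p, and 0 components were lower, where the background was 2.34%. DESeq2 called 0 of the 35 and had 0 at an unadjusted p under 0.05, and edgeR's likelihood ratio test called 0 and had 1, which was Hey2. The log2 fold changes, written throughout as cKI f/+ over WT, ran from -0.18 to 0.49. Their median was 0.042, beside 0.0043 over all genes tested. In direction, 21 components had a value above 0, as did 51.2% of genes tested, and 14 a value below it. On CPM, both cKI f/+ libraries lay above both WT libraries for 7 of the 35 components, where the background was 16.0% of genes tested, and below them for 3, where it was 18.0%. For 1 gene in 2 against 2 libraries, the smallest two-sided p of an exact permutation test is 0.333, and the calls therefore depend on edgeR's pooling of the spread over genes.

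The intervals show how large a difference these libraries could have hidden. For 33 of the 35 components the 95% interval of the log2 fold change lay within a change of 1.5-fold in either direction, as it did for 65.7% of all genes tested. The 2 exceptions were Hey2, with an interval from 0.072 to 0.92, and Dll4, with an interval from -0.32 to 0.71. Among all 35, the lowest bound was -0.49, for Jag1. An interval that includes 0 does not show that a gene was unchanged, and it covers the spread between these libraries only.

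**Figure D1:**
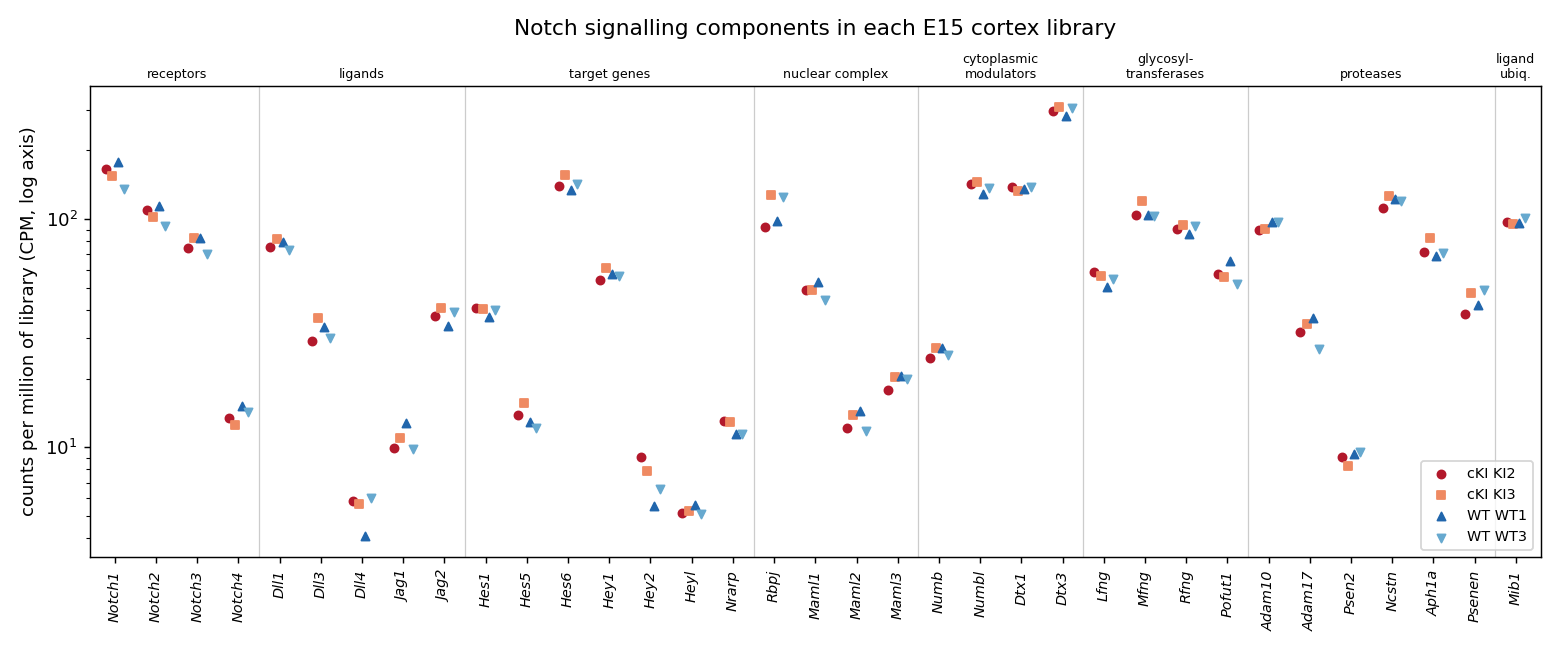
CPM (log axis) of the 35 Notch components in each of the 4 libraries, grouped by role, with circles and squares for the 2 cKI f/+ libraries and upward and downward triangles for the 2 WT libraries. The 4 libraries lie close together for nearly every gene, and Hey2, Dll4, Rbpj and Adam17 show the widest scatter.

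**Figure D2:**
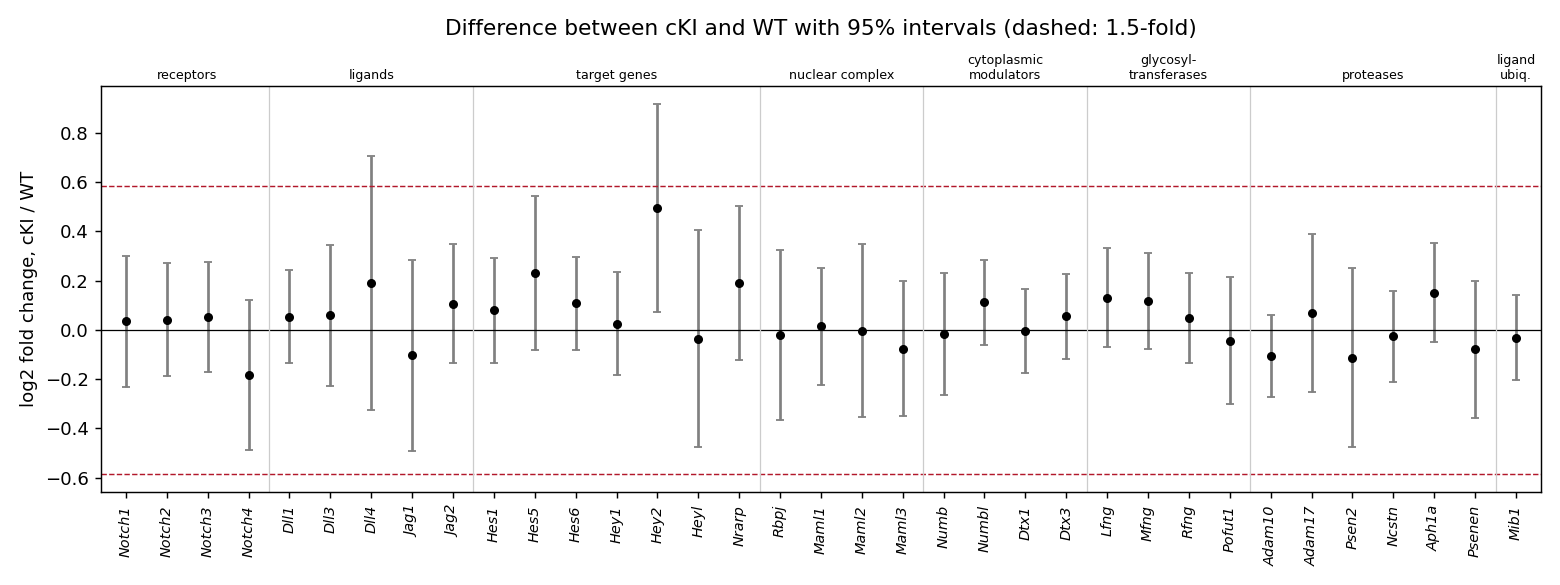
Log2 fold change of cKI f/+ over WT (points) with its 95% interval from edgeR's quasi-likelihood fit (bars) for each component, with dashed lines at a 1.5-fold change. For 33 of the 35 components the bar stays between the dashed lines, and the bars of Hey2 and Dll4 cross the upper one.

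Levels of different genes were compared as CPM per kilobase of exon length, where the length is the union of all exons annotated for the gene. This length includes rarely used exons, so genes with many isoforms, such as Notch1 and Rbpj, come out lower than with a single transcript. On this scale the median of the 35 components over the 4 libraries was 9.71, and that of all genes tested was 5.05. The highest was Dtx3, a ubiquitin ligase of the Deltex family, at 116.3 CPM per kb, which lay at the 97.9th percentile of the genes tested. Hes6, a relative of Hes1 that antagonises it in differentiating neuronal cells, followed at 79.4. Mfng at 38.1, Rfng at 36.5, Psenen at 34.6 and Ncstn at 30.2 came next, a pair of fringe enzymes and a pair of γ-secretase subunits that stood above every receptor and ligand. Of the receptors and ligands the highest was Dll1, at 18.4. At the other end were Heyl at 1.03, Dll4 at 1.39, Hey2 at 1.58 and Notch4 at 1.72.

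**Figure D3:**
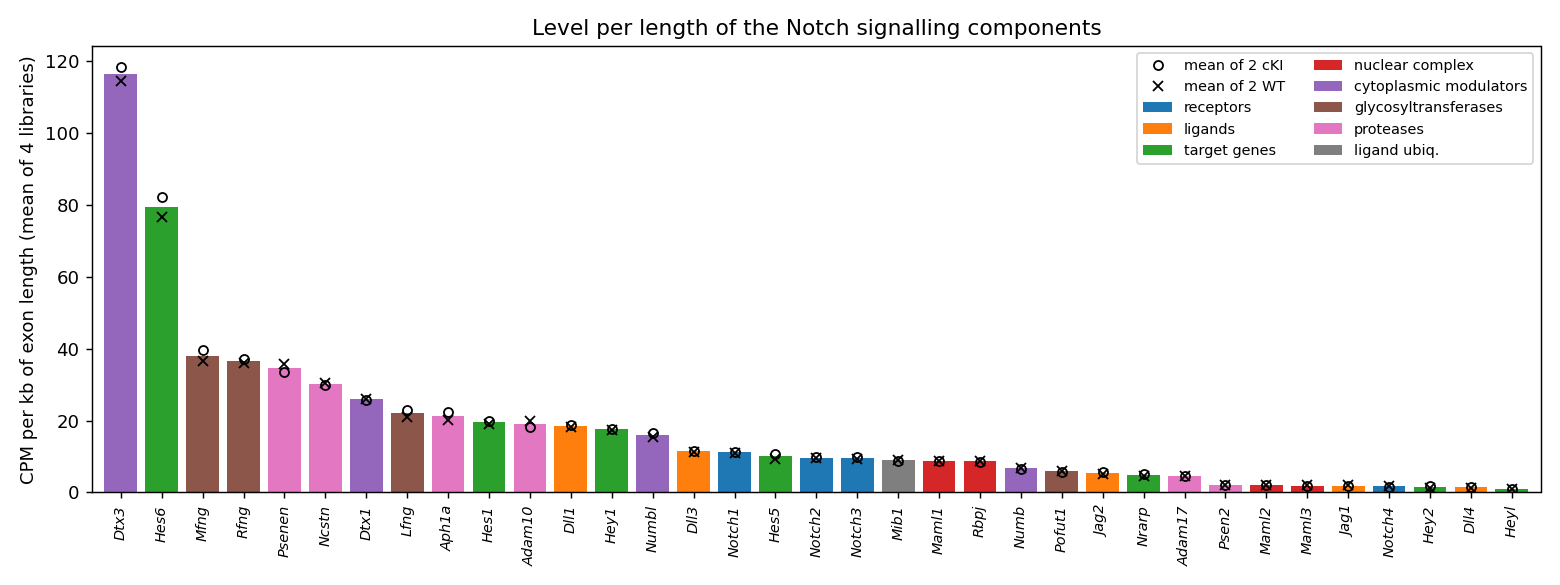
Level of each Notch component as CPM per kilobase of exon length, as the mean of all 4 libraries (bars, coloured by role), with the mean of the 2 cKI f/+ libraries (circles) and of the 2 WT libraries (crosses). Dtx3 at 116.3 and Hes6 at 79.4 stand above all the others, and circles and crosses nearly coincide.

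Among the receptors, Notch1, Notch2 and Notch3 had similar levels per length and Notch4, best known from endothelium, was much lower. Of the summed level per length of the 4 receptors, Notch1 made up 34.6%, Notch2 30.2%, Notch3 29.8% and Notch4 5.36%. These shares rest on the union of all exons, on which Notch1 comes out lower than with a single transcript. Notch1, the main receptor of radial glia, had 165 and 155 CPM in the cKI f/+ libraries KI2 and KI3 and 178 and 136 CPM in the WT libraries WT1 and WT3. Both cKI f/+ values lay between the WT values, and the mean was 159.9 ± 7.50 CPM (SD, n = 2) in cKI f/+ and 156.7 ± 29.8 CPM (SD, n = 2) in WT. Notch2 had 109.7 and 102 CPM in cKI f/+ and 114 and 93.0 CPM in WT, which is the same order of the 4 libraries. Notch3 had 74.6 and 83.0 CPM in cKI f/+ and 82.5 and 70.1 CPM in WT. The log2 fold changes of these 3 receptors were 0.035, 0.042 and 0.052, with standard errors between 0.10 and 0.12. Notch4 was the only receptor whose groups did not overlap, with 13.4 and 12.5 CPM in cKI f/+ and 15.2 and 14.3 CPM in WT. On the log2 scale it differed by -0.18 with a standard error of 0.13, and its adjusted p in edgeR's quasi-likelihood test was 0.969.

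For the 3 large receptors the WT libraries differed more from each other than the genotypes did. Notch1 in WT1 was above WT3 by 0.39 on the log2 scale, a ratio higher than that of 93.6% of the genes tested with reads in all libraries. Without WT1, the log2 fold change of Notch1 was 0.24 (unadjusted p = 0.0180, adjusted p = 0.680 in edgeR's quasi-likelihood test), and without WT3 it was -0.15. Its direction thus depended on which WT library was kept, and it also turned without KI2, at -0.030.

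Among the ligands, Dll1 carried the largest share of the summed level per length of the 5 genes, 47.8%, followed by Dll3 with 29.6% and Jag2 with 14.1%. Jag1 made up 4.84% and Dll4 3.62%. Dll1, which activates Notch on neighbouring progenitors, had 75.7 and 82.2 CPM in cKI f/+ and 79.1 and 73.5 CPM in WT, and the groups overlapped. Its log2 fold change was 0.054 with a 95% interval from -0.14 to 0.24. A930024N18Rik, on the opposite strand, overlaps 20.5% of the exon length of Dll1 and had between 41 and 55 reads. Dll3, a divergent ligand that acts inside the cell that makes it and does not activate Notch in neighbours, had 29.2 and 37.0 CPM in cKI f/+ and 33.8 and 30.0 CPM in WT. KI2 was the lowest and KI3 the highest of the 4 libraries for Dll3, so both WT values lay between the cKI f/+ values.

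Jag2 had 37.7 and 40.7 CPM in cKI f/+ and 33.8 and 39.3 CPM in WT, and Jag1 had 9.92 and 11.0 CPM in cKI f/+ and 12.7 and 9.81 CPM in WT. For Dll4, a ligand of sprouting endothelium, 3 libraries were alike and WT1 stood apart, with 5.81 and 5.63 CPM in cKI f/+, 4.09 CPM in WT1 and 5.97 CPM in WT3. Its log2 fold change was 0.19 with a standard error (SE) of 0.23, and it was -0.056 without WT1. Of the 5 ligands, 0 had groups that did not overlap, where 16.0% of genes tested were higher in both cKI f/+ libraries and 18.0% lower, and a count over so few genes says little. Their summed level per length was 36.8 and 41.6 CPM per kb in cKI f/+ and 38.7 and 36.8 CPM per kb in WT.

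The target genes, as listed here, were the group with the highest median difference, a log2 fold change of 0.11 over 7 genes. That median is the value of Hes6, which was listed with the Hes and Hey genes and whose response to Notch was not tested. The largest value of any component was that of Hey2. Of the 7 target genes, 6 had a value above 0, 0 were called, and 4, namely Hes1, Hes5, Hey2 and Nrarp, had both cKI f/+ libraries above both WT libraries, where 16.0% of all genes tested had that order. The count is a description. Several of these genes are short, with exon lengths of 1363 bases for Hes5, 1808 for Hes6, 2037 for Hes1 and 2582 for Nrarp, while Hey2 has 4593, and the log2 fold change of the components had a Spearman correlation of -0.41 with exon length. The part of length in these values was not tested. The summed level per length of the 7 genes was 132 and 144 CPM per kb in cKI f/+ and 127 and 131 CPM per kb in WT. Hes6 made up 59.4% of that sum over the 4 libraries.

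Hey2, a transcriptional repressor of the Hey family that is best known from the heart and arteries, lies on chromosome 10 of the mouse genome build GRCm38 from 30832359 to 30842801. It had 161 and 142 reads in cKI f/+ and 97 and 114 reads in WT, which was 9.08 and 7.84 CPM against 5.51 and 6.54 CPM. Both cKI f/+ libraries were higher than both WT libraries. The log2 fold change was 0.49 (SE 0.19, unadjusted p = 0.0263, adjusted p = 0.969 in edgeR's quasi-likelihood test), or 1.41-fold, and it was not called. With each library left out in turn it stayed between 0.37 and 0.63, and its unadjusted p was above 0.05 when KI2 or WT1 was left out, at 0.148 and 0.111 in edgeR's quasi-likelihood test. With DESeq2 the unadjusted p was 0.0841.

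Hes1 and Hes5 are the effectors of Notch in radial glia. Hes1 had 40.9 and 40.4 CPM in cKI f/+ and 37.4 and 39.9 CPM in WT, so that the lower cKI f/+ library lay just above the higher WT library. Hes5 had 13.8 and 15.6 CPM in cKI f/+ and 12.9 and 12.2 CPM in WT. Their log2 fold changes were 0.079 (SE 0.094) and 0.23 (SE 0.14), with adjusted p-values of 0.990 and 0.969 from edgeR's quasi-likelihood test. The 95% interval of Hes5 reached from -0.081 to 0.54. Gm20421, on the opposite strand, overlaps 31.8% of the exon length of Hes5 and had at most 2 reads in a library.

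Nrarp, a direct Notch target whose protein dampens the pathway, had the smallest spread within groups among the target genes. It had 13.0 CPM in both cKI f/+ libraries and 11.4 and 11.5 CPM in WT, and the means were 13.0 ± 0.038 (SD, n = 2) and 11.4 ± 0.048 (SD, n = 2). The log2 fold change was 0.19 (SE 0.14, adjusted p = 0.969 in edgeR's quasi-likelihood test), and it stayed between 0.17 and 0.20 with each library left out. With 231 and 235 reads against 201 and 200, the standard error of the model was wider than the spread of the counts within each group. The annotation used here, GENCODE M21, places Gm38287, on the opposite strand, over 79.4% of the exon length of Nrarp. Gm38287 is not among the 26433 genes counted. Whether the counting used strand is not given in the sources used here, so reads of Gm38287 may have been counted on Nrarp.

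The other target genes overlapped between the groups. Hes6 had 140 and 157 CPM in cKI f/+ and 135 and 142 CPM in WT, and made up 59.4% of the summed level per length of the 7 target genes. Hey1 had 54.0 and 61.2 CPM in cKI f/+ and 57.6 and 56.1 CPM in WT. Heyl, a target of Notch3 in vessel walls, had between 5.11 and 5.56 CPM in all 4 libraries.

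The sequences before the start sites of Hes5 and Hey2 are shown because these are the target genes, of those with a window, that hold the core motif read by RBPJ, TGGGAA, on either strand (as TTCCCA on the other). RefSeq promoter windows on GRCm38.p6 were available here for 29 of the 35 components, including 4 target genes, and the 250 bases before each start were searched. Of 37 windows of the components, 9 (24.3%) held at least 1 match, beside 21.6% of all 32851 windows, and these 9 belonged to 8 components. Hes6 and Nrarp had no match in these letters. Capitals mark the matches, and each sequence runs 5′ to 3′ toward the start site. The Hes5 window is chr4:154960673-154960922 on the plus strand, with matches that begin at bases -226 and -82 from the start. The Hey2 window is chr10:30842784-30843033 on the minus strand, with 1 match that begins at -207.
Hes5: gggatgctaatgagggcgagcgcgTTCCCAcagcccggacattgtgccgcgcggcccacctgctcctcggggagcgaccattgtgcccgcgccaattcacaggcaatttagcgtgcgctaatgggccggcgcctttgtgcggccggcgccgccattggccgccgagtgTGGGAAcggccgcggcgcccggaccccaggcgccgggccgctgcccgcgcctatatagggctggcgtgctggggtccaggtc
Hey2: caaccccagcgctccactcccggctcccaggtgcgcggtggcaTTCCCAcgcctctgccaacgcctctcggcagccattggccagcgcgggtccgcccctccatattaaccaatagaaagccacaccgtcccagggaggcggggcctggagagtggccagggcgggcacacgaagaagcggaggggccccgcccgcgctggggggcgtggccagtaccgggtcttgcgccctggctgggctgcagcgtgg
Windows with at least 2 matches made up 2.77% of all windows. Of the 37 windows of the components, 3 had 2 matches, 1 each for Hes5, Lfng and Rbpj. A match is a stretch of letters and not a measured binding site.

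The nuclear complex comprised Rbpj, the DNA-binding partner of the receptor's intracellular domain, and the 3 Mastermind coactivators. Rbpj had the widest scatter of the 4 genes, and the scatter ran across the genotypes. It had 92.1 CPM in KI2 and 97.6 CPM in WT1, and 127 CPM in KI3 and 126 CPM in WT3. Each group thus held a low and a high library, and the log2 fold change was -0.021 (SE 0.15). Maml1 had 48.9 CPM in both cKI f/+ libraries and 52.9 and 44.4 CPM in WT. Maml2 lay between 11.8 and 14.5 CPM and Maml3 between 17.8 and 20.6 CPM, and both overlapped between the groups.

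The scatter of Rbpj was accompanied by that of a processed copy of the gene. Rbpsuh-rs3, on chromosome 6 from 46529354 to 46530794, is annotated as a processed pseudogene, and over its whole length of 1441 bases it differs from the coding sequence of Rbpj at 4 bases, an identity of 99.7%. It had 166 reads in KI2 and 190 in WT1, and 15 reads in KI3 and 8 in WT3. The libraries with many reads on the copy were the ones with few on Rbpj. Reads on the copy made up 9.22% and 9.95% of the sum of both genes in KI2 and WT1, and 0.648% and 0.364% in KI3 and WT3. With the reads of both added together, Rbpj had 101 and 128 CPM in cKI f/+ and 108 and 126 CPM in WT. The log2 ratio of KI2 to KI3 went from -0.46 to -0.33 and that of WT1 to WT3 from -0.36 to -0.22, so part of the scatter remained in the sum. The log2 fold change between genotypes was then -0.026. A read that fits both genes cannot be assigned with certainty, and the level of Rbpj in KI2 and WT1 is uncertain for that reason. A stretch of 60 coding bases, from coding base 1030 to 1089 of the GENCODE M21 transcript of Rbpj, holds 2 of the 4 differences and shows how alike the genes are. Capitals mark the differing bases, C57A and G60A with Rbpj first, counted from 1 at the first base shown.
Rbpj: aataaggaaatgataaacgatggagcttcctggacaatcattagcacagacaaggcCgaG
Rbpsuh-rs3: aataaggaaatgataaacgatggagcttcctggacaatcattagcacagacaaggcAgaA

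Psenen, which encodes the γ-secretase subunit PEN-2, showed a pattern of the same kind in a single library. It had 680 reads in KI2 and 857 in KI3, against 739 in WT1 and 851 in WT3. Its processed copy Gm12396, on chromosome 4 from 40775259 to 40775564, is identical to Psenen over all of its 306 bases. Gm12396 had 169 reads in KI2 and between 4 and 11 in the other libraries. In the sum of both, KI2 had 849 reads and KI3 had 868, and their log2 ratio on CPM went from -0.30 to -0.0011. The log2 fold change of Psenen was -0.079 (SE 0.12) alone and 0.075 (SE 0.10) with the copy's reads added, so its sign turned. Neither was called, with adjusted p-values of 0.993 in edgeR's quasi-likelihood test. Another copy, Gm15429 on chromosome 1, is identical to Aph1a over 798 bases and had between 12 and 28 reads, against 1208 to 1493 on Aph1a. These copies were looked for after the scatter of Rbpj had been seen.

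**Figure D4:**
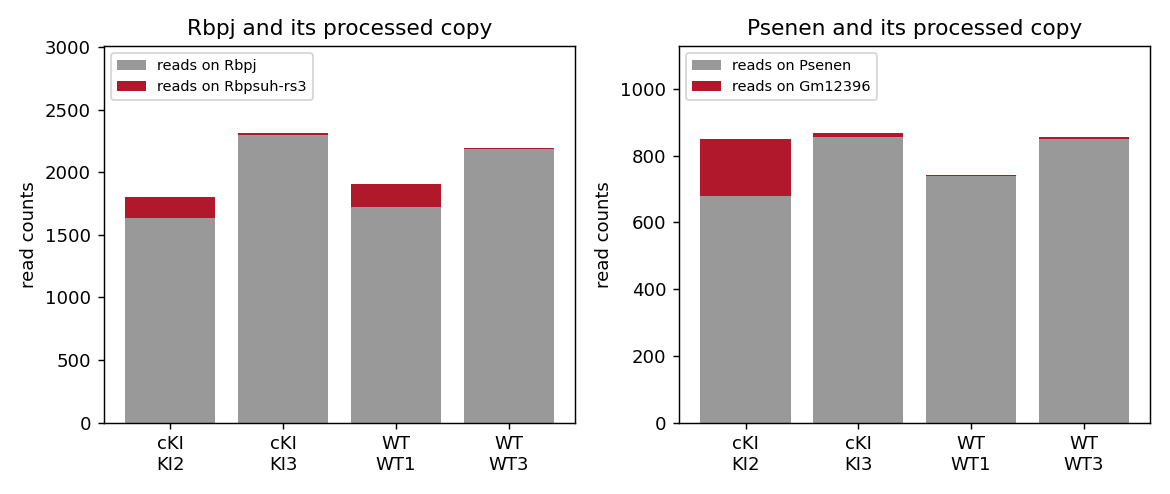
Read counts on Rbpj and on Psenen (grey) in each library, with the reads on their processed copies Rbpsuh-rs3 and Gm12396 stacked on top (red). KI2 and WT1 hold 166 and 190 reads on the copy of Rbpj, and KI2 holds 169 reads on the copy of Psenen, while the other libraries hold at most 15.

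The proteases that cut Notch gave small differences in both directions, with 2 of 6 components above 0 and 4 below it. Adam10, the main protease that sheds the Notch ectodomain, had the smallest standard error of them. It had 89.5 and 90.2 CPM in cKI f/+ and 97.4 and 96.8 CPM in WT, and the groups did not overlap. The log2 fold change was -0.11 (SE 0.075, 95% interval from -0.27 to 0.062, adjusted p = 0.969 in edgeR's quasi-likelihood test), and it stayed between -0.12 and -0.10 with each library left out. Adam17, the related protease known for releasing TNF, had 32.0 and 34.5 CPM in cKI f/+ and 36.8 and 26.9 CPM in WT, and its log2 fold change was 0.31 without WT1 and -0.14 without WT3.

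Of the γ-secretase subunits, Ncstn had 112 and 126 CPM in cKI f/+ and 122 and 121 CPM in WT. Psen2, a catalytic subunit, had 9.08 and 8.28 CPM in cKI f/+ and 9.31 and 9.53 CPM in WT. Aph1a, a scaffold subunit, had 72.0 and 82.4 CPM in cKI f/+ and 68.6 and 70.9 CPM in WT, so that both cKI f/+ libraries were higher. Its log2 fold change was 0.15 (SE 0.090, adjusted p = 0.969 in edgeR's quasi-likelihood test). Exons of 15 components overlap another gene of the annotation. Those of Aph1a share 445 bases, or 12.9% of its exon length, with Car14 on the opposite strand. Car14 had 291 and 307 reads in cKI f/+ and 243 and 210 in WT, and the part of these reads in the value of Aph1a was not tested.

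Fringe glycosyltransferases lengthen the sugar that Pofut1 places on Notch and so tune which ligands it answers. Lfng had 58.6 and 56.3 CPM in cKI f/+ and 50.6 and 54.7 CPM in WT, with both cKI f/+ libraries above both WT libraries and a log2 fold change of 0.13 (SE 0.090, adjusted p = 0.969 in edgeR's quasi-likelihood test). Mfng had 104 CPM in KI2, 120 CPM in KI3, 104 CPM in WT1 and 103 CPM in WT3, and KI3 alone stood apart. Rfng lay between 85.9 and 93.9 CPM. Pofut1 had 57.6 and 55.9 CPM in cKI f/+ and 65.5 and 51.9 CPM in WT, again with both cKI f/+ values between those of WT1 and WT3.

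Numb and Numbl are cytoplasmic adaptors that restrain Notch and are handed unequally to daughter cells. Numbl had 142 and 145 CPM in cKI f/+ and 129 and 137 CPM in WT, without overlap, and a log2 fold change of 0.11 (SE 0.077, adjusted p = 0.969 in edgeR's quasi-likelihood test). Numb had 24.5 and 27.2 CPM in cKI f/+ and 27.3 and 25.3 CPM in WT. The Deltex genes had narrow intervals. Dtx1 had between 133 and 139 CPM in the 4 libraries, with an interval of its log2 fold change from -0.17 to 0.17, and Dtx3 had 299 and 310 CPM in cKI f/+ and 283 and 305 CPM in WT. Mib1, the ubiquitin ligase that lets ligands be internalised and thereby pull on the receptor, had 97.0 and 94.8 CPM in cKI f/+ and 96.3 and 101 CPM in WT, with an interval from -0.20 to 0.14.

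For the 35 components, the spread within groups was set beside the difference between them. The median absolute log2 ratio was 0.11 between WT1 and WT3 and 0.11 between KI2 and KI3, and the median absolute log2 fold change between genotypes was 0.069. Over all genes tested the corresponding medians were 0.14, 0.12 and 0.099, so the components had the same order of values as other genes. A ratio of single libraries also varies more than a difference of group means by construction. For 28 of the 35 components the larger of the 2 within-group ratios exceeded the log2 fold change, as it did for 74.7% of genes tested. The log2 ratios of WT1 to WT3 farthest from 0 were -0.50 for Dll4, 0.45 for Adam17, 0.39 for Notch1, -0.36 for Rbpj and 0.36 for Jag1, and they ran in both directions. Over the 35 components the ratio of WT1 to WT3 had a Spearman correlation of 0.39 with exon length, and over 15744 tested genes 0.23. The corresponding values for KI2 over KI3 were 0.24 and 0.15. For the log2 fold change between genotypes the Spearman correlation with exon length was -0.41 over the 35 components and -0.17 over all genes tested that have a length, so that shorter components tended to have the higher values. These correlations run across genes of the same libraries, and genes are not independent replicates.

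**Figure D5:**
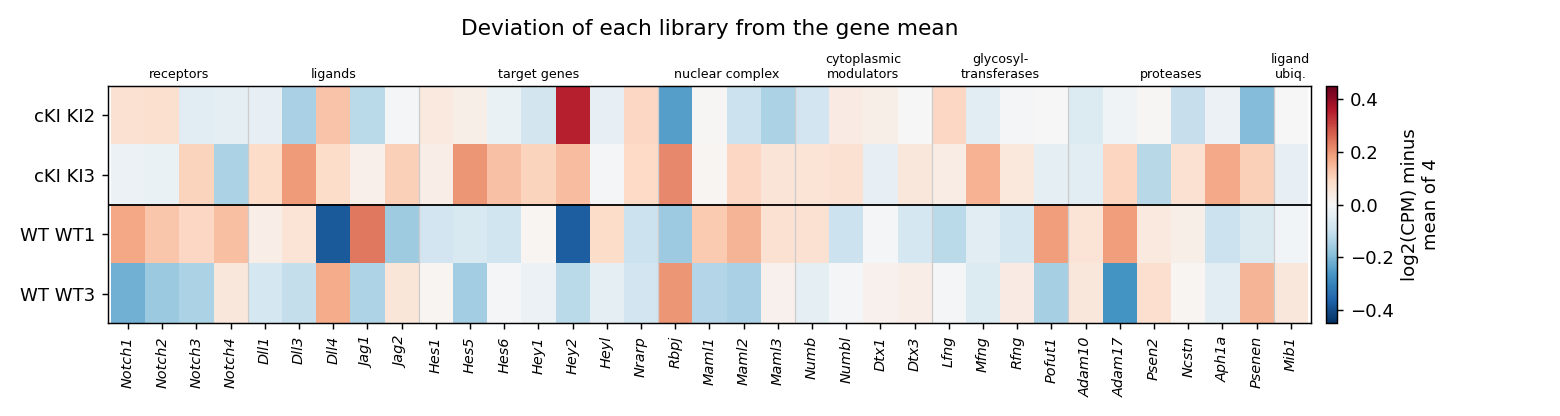
Deviation of each library's log2 CPM from the mean of the 4 libraries for each Notch component (red above, blue below), with the 2 cKI f/+ libraries above the black line and the 2 WT libraries below it. Notch1, Pofut1 and Adam17 are red in WT1 and blue in WT3, Rbpj is blue in KI2 and WT1 and red in KI3 and WT3, and Hey2 is red in both cKI f/+ libraries.

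Of the components, 3 lie, as Dll1, Notch3 and Notch4, on chromosome 17, at 15367354, 32120820 and 34564268. Their log2 fold changes were 0.054, 0.052 and -0.18, and 0 of them were called. The remaining components lie on 13 other autosomes.

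The pathway beyond the 35 components was followed in a list of 32 genes, among them further ligases of ligands and receptors, the non-canonical ligands Dlk1, Dlk2 and Dner, and corepressors that occupy RBPJ without Notch. Of these, 29 were tested, 0 were called in edgeR's quasi-likelihood test, and 0 had an unadjusted p under 0.05, beside 0.120% and 4.60% of genes tested. DESeq2 and edgeR's likelihood ratio test also called 0. Their median log2 fold change was 0.046, and 19 values were above 0 and 10 below it. Itch, a ubiquitin ligase that targets Notch, came nearest, with 833 and 783 reads in cKI f/+, 935 and 889 in WT and a log2 fold change of -0.20 (SE 0.093, adjusted p = 0.969 in edgeR's quasi-likelihood test). Dlk1, an imprinted gene, had 118 and 138 reads in cKI f/+ and 91 and 102 in WT, a log2 fold change of 0.38 (SE 0.19, adjusted p = 0.969 by the same edgeR test). The 3 genes that were not tested were other Hes genes. Hes2 and Hes3 had 1 read in KI3 and 0 in the other libraries, and Hes7, the oscillator of somite formation, had between 2 and 6 reads, so that Hes1, Hes5 and Hes6 were the Hes genes detected in this tissue beyond the floor in every library.

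In bulk tissue, fewer cells of a type and less RNA per cell cannot be told apart, so the markers of the cells that use Notch were read beside the components. All 10 radial glia markers and all 9 neuron markers had enough reads to test. So did all 10 endothelial, all 6 blood and all 6 microglial markers, so this does not identify the tissue. Markers of radial glia, the main Notch-receiving cells, summed to 2533 and 2617 CPM in cKI f/+ and 2557 and 2689 CPM in WT, and 0 of 10 were called or had an unadjusted p under 0.05. Intermediate progenitor and proneural genes, which include the genes that Hes1 represses, summed to 1317 and 1321 CPM in cKI f/+ and 1296 and 1275 CPM in WT, and 1 of 9, Neurog1, had an unadjusted p under 0.05, with a value of 0.34 on the log2 scale, and 0 were called. Neuron markers summed to 6076 and 5618 CPM in cKI f/+ and 6155 and 6337 CPM in WT, with 0 of 9 called.

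Notch4, Dll4, Hey2 and Heyl are well known from vessels and were set beside vessel markers. The cells that express them here were not identified. The 10 endothelial markers summed to 116 and 127 CPM in cKI f/+ and 129 and 126 CPM in WT, and 0 of 10 had an unadjusted p under 0.05. The 8 mural cell markers summed to 61.1 and 59.3 CPM in cKI f/+ and 74.9 and 74.0 CPM in WT, and 1 of the 6 tested, Rgs5, had an unadjusted p under 0.05, with a value of -0.40 on the log2 scale, and 0 were called. On CPM, 1 mural marker, Anpep, lay above WT in both cKI f/+ libraries, as Hey2 did, and 4 lay below. The background was 16.0% above and 18.0% below of the genes tested. The part of vessel cells in the value of Hey2 was not tested. Acta2 and Tagln, markers of contractile mural cells, had at most 5 reads in a library.

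Other tissues moved between the libraries as well. Choroid plexus markers summed to 9.08 CPM in KI2 and 67.2 in KI3, against 1.59 in WT1 and 4.42 in WT3, and most of the sum in both cKI f/+ libraries was Ttr, which had 116 and 956 reads there and 0 and 4 in WT. Meningeal markers summed to 21.8 and 19.9 CPM in cKI f/+ and 9.99 and 11.5 CPM in WT, with 4 of the 5 tested at an unadjusted p under 0.05 and 0 called. Ventral telencephalic markers summed to 346 and 368 CPM in cKI f/+ and 352 and 433 CPM in WT, and the 2 of 10 at an unadjusted p under 0.05 went opposite ways, with log2 values of -0.59 for Dlx2 and 1.94 for Nkx2-1. Blood markers summed to 431 and 284 CPM in cKI f/+ and 406 and 455 CPM in WT, with 3 of 6 lower at an unadjusted p under 0.05, and microglial markers summed to between 24.8 and 30.4 CPM, with 1 of 6 lower. The part of these tissues in the values of Hey2, Hes5 and the other components was not tested. Without KI3, the library with the most Ttr, the log2 fold change of Hey2 was 0.60 and that of Hes5 0.14. KI2, which remained, also had more Ttr reads than either WT library, so this fit cannot address the part of choroid plexus.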

How the data were processed

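Bulk RNA-seq of E15 cortex from 2 cKI f/+ and 2 WT libraries was analysed. The deposited values are read counts on genes, with no normalization applied by the authors. The submitters' processing notes name Bowtie2 2.2.3, TopHat2 2.0.12 and HTSeq 0.6.0 and the build mm9, whereas 24485 of the 26433 gene positions in the deposited table are those of GENCODE M21 on GRCm38. The annotation release and strand setting are not given in the sources used here, and reads that fit several genes may have been placed or dropped by these tools. The columns show a genotype but not which labelled sample they hold, so they were used by group. Triplicates are mentioned in the labels; the counts analysed here are of 2 libraries a group. The table's columns of the authors' own comparison (mean, fold change, p-values and a call) were not used.

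CPM were counts divided by the library total. With R 4.3.3, edgeR 4.0.16 was run with TMM normalization on the 15786 genes that passed filterByExpr, and quasi-likelihood p-values were adjusted over all of them by the Benjamini-Hochberg method (threshold 0.05). The biological coefficient of variation was 8.72%. The standard error is the size of the log2 fold change divided by the square root of F, and the 95% interval uses the degrees of freedom of the fit. Log2 ratios of 2 libraries in a group used a pseudocount of 0.5 CPM. As alternatives, the likelihood ratio test of edgeR, DESeq2 1.42.0, different filters and normalizations, fits without genes of chromosomes X and Y, and fits without 1 library were run. The fits were also run on simulated counts drawn from the fitted spread of each gene, and no result here rests on that run. Copies were genes sharing at least 50% of their 31-base words with a component in GENCODE M21 transcripts. Adding their reads was chosen after seeing the data.

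The components and lists were chosen with earlier results of these data known. All 35 components are accounted for, and other pathway genes were to be named at an unadjusted p under 0.05. Itch, Dlk1, Hes2, Hes3, Hes7, Car14, Gm20421, A930024N18Rik and the copies fall outside that rule, and they were picked with their values in view.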

Additional observations from a re-analysis of the deposited data

How the results depend on the processing

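The number of components called was 0 as reported and in the alternatives that changed the test, the normalization, the filter, the chromosomes or the libraries. With an unadjusted p under 0.05 as the threshold it was 1, and the other pathway genes gave 0. The range over the fits that left out 1 library was 0 to 0 for both counts (0 to 2 components at an unadjusted p under 0.05), and in those fits a lone library is assumed to vary like the others. The lowest adjusted p of a component over the alternatives was 0.470, for Hey2 without WT3. The median log2 fold change of the components was 0.042, and it ranged from 0.0035 without WT3 to 0.068 without WT1. TMM scaling moved a component's CPM in a library by at most 0.663%. Of 315 comparisons of single components under the other settings, 312 kept their direction. With upper quartile normalization Maml2 went to 0.0058 and Dtx1 to 0.0032, and with the reads of copies added Psenen went to 0.075, since its copy held reads mostly in KI2. In the first pair the values lie near 0 and the cause was not tested.

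Leaving out 1 library turned the direction of 21 components. The log2 fold changes then ran from -0.15 to 0.24 for Notch1, -0.095 to 0.19 for Notch2, -0.059 to 0.18 for Notch3, -0.0060 to 0.11 for Dll1, -0.12 to 0.20 for Dll3, -0.056 to 0.49 for Dll4 and -0.28 to 0.096 for Jag1. They ran from -0.067 to 0.098 for Hey1, -0.093 to 0.028 for Heyl, -0.27 to 0.18 for Rbpj, -0.10 to 0.15 for Maml1, -0.14 to 0.15 for Maml2, -0.18 to 0.0056 for Maml3, -0.094 to 0.040 for Numb and -0.051 to 0.027 for Dtx1. They ran from -0.0078 to 0.11 for Rfng, -0.20 to 0.13 for Pofut1, -0.14 to 0.31 for Adam17, -0.11 to 0.042 for Ncstn, -0.24 to 0.050 for Psenen and -0.064 to 0.0022 for Mib1. None of these values was called.

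No paired analysis was possible because the labels used here name no litter or pair for the libraries. Depth limits the rarest components most, since Dll4 and Heyl had 72 to 104 reads a library.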
